A study of Mus musculus with 2 samples.

Results

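The peaks described here lie in protein-coding sequence, away from the places where transcription starts. They were taken from a list of 76546 regions bound by the linker histone H1t. A peak was taken when it lay on chromosomes 1 to 19, when its midpoint fell in a coding segment of a protein-coding gene in the GENCODE M21 annotation of GRCm38 (mm10), and when that midpoint was more than 2 kb from every annotated transcript start. Of the 72438 peaks on these chromosomes, 2181 met the rule (3.01%), and they are called coding peaks below. They made up 42.6% of the 5124 autosomal peaks with a coding midpoint. The 2181 coding peaks fell in 2125 coding exons, 1.75% of the exons that could hold one, and in 1715 genes, 10.8% of the genes that could.

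H1t was immunoprecipitated with a rabbit polyclonal antibody raised in the submitters' laboratory. The chromatin was cut enzymatically and came from germ cells of the testes of ICR mice, an outbred stock, that were 6 weeks old. The number of animals is not stated in the labels, and no stage of sperm development is named. The second of the 2 libraries, an input of the same cells made without antibody, was not analysed here. With 1 library there was no replicate, so the values are descriptions and carry no p-value. The list gives positions and a score only, so the labelled cell type could not be compared with its marker genes, and depth is unknown.

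Linker histones bind the nucleosome where DNA enters and leaves it and favour compact chromatin. H1t is the variant made in spermatocytes and early spermatids, at the stages when chromosomes recombine and before protamines replace most histones. Coding exons are short stretches between long introns in most genes and are, in mammals, richer in G and C than the introns around them. Their composition differs widely between genes, and the base at the last position of a codon carries most of that difference. CG dinucleotides (CpG) are the main sites of DNA methylation in mouse cells.

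The sequence at the midpoint of the strongest coding peak is shown for 5 of the genes with the most of them, because the results below turn on the base composition of the exons. Each stretch holds at most 200 coding bases, is written 5′ to 3′ on the strand of the gene, and has CG dinucleotides in capitals. The letters are the reference sequence of the GENCODE M21 transcripts, not reads of the ICR animals. The Bahcc1 stretch is chr11:120287327-120287526 on the plus strand, in exon 26 of 28. For Lrp1 it is chr10:127545731-127545865 on the minus strand, the 135 bases of exon 74 of 89. For Crocc it is chr4:141032802-141032971 on the minus strand, the 170 bases of exon 20 of 37. The Plec stretch is chr15:76181488-76181687 on the minus strand, in exon 31 of 32. The Sptbn4 stretch is chr7:27367645-27367844 on the minus strand, in exon 27 of 36.
Bahcc1: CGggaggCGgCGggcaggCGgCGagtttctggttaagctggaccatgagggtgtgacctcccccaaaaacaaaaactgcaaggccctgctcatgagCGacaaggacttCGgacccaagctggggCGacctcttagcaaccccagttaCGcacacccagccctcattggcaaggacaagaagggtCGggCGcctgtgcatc
Lrp1: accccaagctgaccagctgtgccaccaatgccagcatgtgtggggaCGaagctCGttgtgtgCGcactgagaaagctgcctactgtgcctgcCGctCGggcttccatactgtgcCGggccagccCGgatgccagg
Crocc: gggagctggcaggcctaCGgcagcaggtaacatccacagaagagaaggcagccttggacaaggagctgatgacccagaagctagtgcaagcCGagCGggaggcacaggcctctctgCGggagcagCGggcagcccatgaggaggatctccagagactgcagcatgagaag
Plec: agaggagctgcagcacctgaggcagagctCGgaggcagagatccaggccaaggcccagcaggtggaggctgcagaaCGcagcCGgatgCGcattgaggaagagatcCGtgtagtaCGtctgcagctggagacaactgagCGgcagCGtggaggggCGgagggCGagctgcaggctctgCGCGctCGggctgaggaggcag
Sptbn4: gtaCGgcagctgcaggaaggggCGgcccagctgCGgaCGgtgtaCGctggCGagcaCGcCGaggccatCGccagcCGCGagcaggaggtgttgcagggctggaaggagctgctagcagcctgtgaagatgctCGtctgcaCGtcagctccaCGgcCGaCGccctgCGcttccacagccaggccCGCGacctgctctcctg

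The next stretches come from the middle of the 2 longest coding exons that lie wholly beyond 2 kb from a start and are touched by no peak, and are shown for contrast. The first lies at chr2:76744517-76744716 on the minus strand in exon 274 of 312 of Ttn, which encodes the giant muscle protein titin. The second lies at chr19:9009910-9010109 on the plus strand in exon 5 of 5 of Ahnak, which encodes a large scaffold protein.
Ttn: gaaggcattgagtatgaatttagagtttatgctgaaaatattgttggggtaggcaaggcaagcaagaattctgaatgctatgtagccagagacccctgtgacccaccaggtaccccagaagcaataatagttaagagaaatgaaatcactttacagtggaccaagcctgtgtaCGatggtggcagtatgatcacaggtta
Ahnak: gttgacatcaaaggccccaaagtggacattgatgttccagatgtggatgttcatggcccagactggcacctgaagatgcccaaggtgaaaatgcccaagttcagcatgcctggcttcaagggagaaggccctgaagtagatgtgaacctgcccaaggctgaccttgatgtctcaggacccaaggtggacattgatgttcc
The bound stretches held 61.0% GC (Bahcc1) to 69.5% GC (Sptbn4), with 5 CG dinucleotides in Crocc and 19 in Sptbn4 at the extremes. The Ttn stretch held 43% GC and 1 CG, and the Ahnak stretch 52% GC and 0 CG. The whole Ttn exon of 17106 coding bases was at 46.4% GC and the Ahnak exon of 16623 bases at 47.4%, while the bound exons ran from 61.8% (Crocc) to 69.0% (Sptbn4).

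Coding peaks were weaker and narrower than most of the list. Their scores, the authors' own value for each peak, ran from 50 to 1082.27 with a median of 65.17 and quartiles of 55.98 and 84.36. The median was 73.82 over all autosomal peaks, 77.16 outside genes, 71.29 in introns of coding genes, and 68.58 at the 2943 coding midpoints within 2 kb of a start. A score of 100 or more was reached by 332 coding peaks (15.2%), against 29.3% of all autosomal peaks and 27.0% of intronic peaks. A score below 60 was given to 825 coding peaks and one of 200 or more to 27. Their median width was 616 bp (quartiles 541 and 749), against 699 bp for all autosomal peaks, and 8.53% were at least 1 kb wide, against 19.6%. Other exonic peaks were closer to them. At coding midpoints within 2 kb of a start the median width was 646 bp, with 12.3% at least 1 kb wide. A score of 100 or more was reached there by 19.3%. Peaks in non-coding parts of exons had a median score of 67.8 and a median width of 640 bp. Of these, 12.9% were at least 1 kb wide and 19.5% scored 100 or more. Within the coding peaks score rose with width (Spearman rho 0.68 across the 2181 peaks of this 1 library), and less with the length (0.28) and GC content (0.14) of the exon.

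To see which exons held the peaks, each was set beside the sequence in which one could have been found. This eligible sequence was the 20.2 Mb of autosomal coding bases more than 2 kb from any start, in 121542 exons or parts of exons of 15887 genes, the basis of the 1.75% and 10.8% above. The density was 108 coding peaks per Mb. Shares of peaks carry 95% Wilson intervals, which cover counting error only and take no account of neighbouring peaks.

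The exons with coding peaks were rich in G and C. The exon under a coding peak had a median GC content of 60.6% (quartiles 58.1 and 63.1), while the median eligible coding base lay in an exon of 50.9% (quartiles 45.4 and 56.1). Exons of 60% GC or more held 1211 coding peaks, 55.5% of them, in 10.4% of the eligible bases. Exons below 50% GC held 18 peaks in 45% of the bases. With the eligible bases divided into 5 classes of equal size by exon GC content, the classes held 1, 10, 53, 347 and 1770 coding peaks from the lowest GC to the highest. The highest class, above 57.3% GC, therefore had 81.2% of the peaks (79.5 to 82.7) in 20% of the bases.

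**Figure D1:**
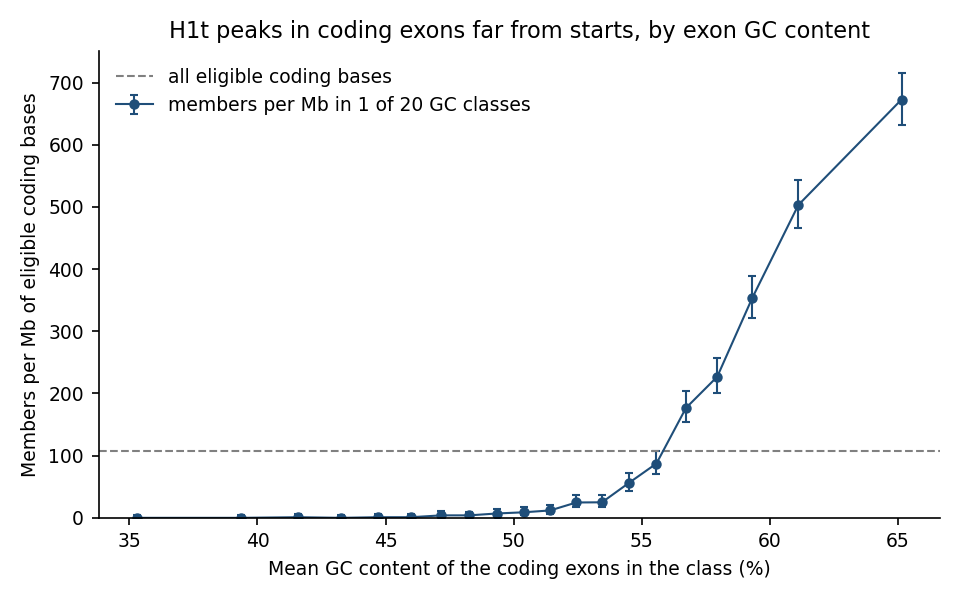
Coding peaks per Mb of eligible coding bases (y axis) against the mean GC content of the exons (x axis, percent), for 20 GC classes of equal size in bases. Bars are 95% Wilson intervals for counting error and the dashed line is the density over all eligible bases, 108 per Mb; the curve is close to 0 below 50% GC and reaches 673 per Mb in the highest class.

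The density rose from 0.248 peaks per Mb in the lowest of the 5 classes through 2.48, 13.1 and 86.2 to 439 per Mb in the highest. In the plot of density over 20 GC classes the rise was steep above 54% GC, and the highest class, above 62.3% GC, held 678 peaks at 673 per Mb. GC at the third codon position moved with it, with a median of 71.7% in the exons under peaks against 56.5% over eligible bases. The part of read coverage by base composition in this relation was not tested, since the input library was not analysed here.

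CG dinucleotides followed the same direction. The exons under peaks had a median of 4.18 CpG per 100 bases against 2.27 over eligible bases, and an observed-over-expected CpG ratio of 0.470 against 0.361. Exons of at least 200 coding bases were then compared within narrow GC bands. At 60 to 62% GC the density was 605 per Mb for exons with a ratio under 0.5, 589 at 0.5 to 0.75 and 560 at 0.75 or more. At 62 to 64% GC it was 743, 743 and 954 per Mb in the same order, the last from 17 peaks. Below 60% GC the densities were higher at a ratio of 0.5 to 0.75 than under 0.5, as with 345 against 227 per Mb at 56 to 58%. Across the bands themselves the density went from 8.70 per Mb under 54% GC to 832 at 66 to 70%, and was 605 at 70% or more, where 35 peaks lay.

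Inside long exons the midpoints lay at the GC-richer places. Exons of at least 1 kb of coding sequence were cut into stretches of 200 bases, and each stretch was asked whether it held a midpoint. Midpoints fell in 350 stretches, fewer than the 465 coding peaks of such exons, so the stretches leave some of these peaks out. Of 5589 stretches under 50% GC none did, which allows a share of up to 0.0537%. The share was 0.653% at 50 to 55% GC, 4.21% at 55 to 60%, 11.8% at 60 to 65% and 17.3% at 65 to 70%, and 10.7% of the 131 stretches at 70% or more. Among the 411 long exons with a coding peak, stretches with a midpoint had a median GC content of 61.5% and the other stretches of the same exons 59%. The 200 bases around the midpoint were richer in GC than the exon as a whole for 337 of the 465 peaks in such exons, and poorer for 128.

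Long exons of moderate GC content show this local difference plainly. The last exon of Flg2, which encodes a filaggrin-type protein of the skin barrier, had 1689 coding bases at 47.2% GC, and the 200 bases at its peak (score 97.43) were at 61%. In this exon 33.0% of the words of 31 bases occur more than once, and the part of this in the place of the peak was not tested. The exon of 5970 bases of Son, an RNA splicing cofactor named here after its values were seen, was at 49.8% GC and its peak (score 56.53) at 63.5%. These were the 2 exons with a coding peak among 876 long exons under 50% GC (0.228%). In the clustered protocadherins, neuronal adhesion genes with long exons, Pcdhb17 (score 143.59), Pcdhb5 (75.07) and Pcdhga10 (61.75) each had a peak at 60.5 to 62.5% GC within an exon of 52.3 to 52.6% GC. The list's other peaks, named after their values were seen, were at 61.5% GC in an exon of 50.4% in Pcdhb2 and at 56.5% in an exon of 51.4% in Pcdhga7. Conversely, 181 of the 294 long exons of 60% GC or more held a coding peak (61.6%), and 233 were touched by any peak (79.3%).

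The coding peaks in GC-poor exons were mostly peaks on short exons, of which little was coding. Low coding shares were common to short exons, with a median of 30.1% over all 673 coding peaks in exons of 200 bases or less. The 1 peak in the lowest GC class lay on exon 19 of 21 of Elmo2, a regulator of cell migration, where 83 coding bases at 42.2% GC made up 15.2% of the peak. Of the 18 coding peaks in exons under 50% GC, 16 lay in exons of 225 bases or less, and at most 47.6% of each of these 16 peaks was coding. Apart from Flg2 these genes were named after their values were seen. The highest score among the 16 was 115.33, in Dna2, which encodes a nuclease and helicase of DNA replication. At the other end, 42 long exons of 60% GC or more that lay wholly beyond 2 kb from a start were touched by no peak. The richest of these was exon 4 of 4 of Nova2, a neuronal splicing regulator, with 1080 coding bases at 72.7% GC, followed by single exons of Gdf7 (70.1%), Otud7a and Apba1 (70% each), also named after their values were seen.

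The exons with coding peaks were also long. Their coding length had a median of 313 bases (quartiles 181 and 835), against 183 (127 and 521) for the exon of the median eligible base. The whole exon, untranslated sequence included, had a median of 488 against 197 bases. Exons of 1 kb or more of coding sequence held 465 coding peaks, 21.3% (19.7 to 23.1), in 15.8% of the bases. Exons of up to 100 bases held 88 peaks (4.03%) in 13.2% of the bases.

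**Figure D2:**
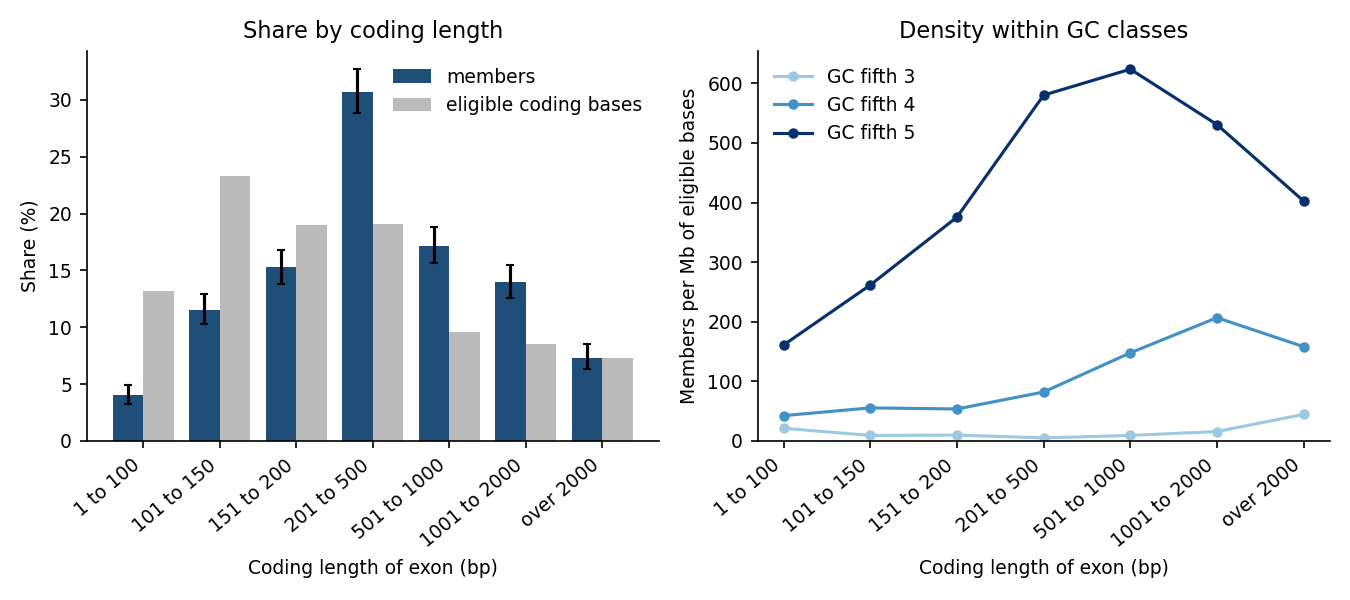
Left, the share of coding peaks and of eligible coding bases (y axis, percent) in 7 classes of coding exon length (x axis, bp), with 95% Wilson intervals on the peaks. Right, coding peaks per Mb in the same length classes, drawn as lines for the 3 GC classes of highest GC content out of 5; the highest line peaks at 624 per Mb in exons of over 500 and up to 1000 bases.

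Density rose with length and then fell. It was 33.1 peaks per Mb in exons of up to 100 bases, 53.5 from there to 150, 87.1 to 200, 174 to 500, 193 to 1000, 176 to 2000 and 109 above 2000 bases. If each of 20 GC classes kept its overall density, the exons of up to 100 bases would hold 194 peaks where 88 were found, a ratio of 0.453, and the exons over 500 and up to 1000 bases 275 where 374 were found, a ratio of 1.36. The plot of density within GC classes shows a rise and a fall in the highest of the 5 GC classes, from 161 per Mb at up to 100 bases to 624 at over 500 to 1000 and 402 above 2000 bases. The order was not the same in the other classes drawn. In the next lower class the density was highest, 207 per Mb, at over 1000 to 2000 bases, and in the one below that, with 53 peaks in all, it was lowest, 5.11, at over 200 to 500 and highest, 44.6, above 2000. Score moved with length as well, with a median of 60.5 in exons of up to 100 bases and 78.57 at over 1000 to 2000.

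The peaks were wider than most exons, so many of them covered an exon and the introns beside it. A median of 56.8% of a coding peak was coding, 296 peaks were coding throughout, and 908 were coding over less than 50% of their width. The whole coding part of the exon was covered by 1377 peaks. In exons of 200 bases or less there were 673 coding peaks (30.9%), with a median width of 572 bp, of which 30.1% was coding. In exons of 1 kb or more the median width was 747 bp and 243 of the 465 peaks were coding throughout. A single coding exon was touched by 1791 peaks, 2 exons by 291, and 3 or more by 99. The largest number was 7, under a peak of 1866 bp in Itpr3 (chr17:27114789-27116654, score 250.08), which encodes an inositol trisphosphate receptor of the endoplasmic reticulum.

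Exon rank had the same median, 7, under coding peaks and over the eligible bases, with quartiles of 3 and 13 against 4 and 14, and the highest rank was 136. Density was highest at ranks 1 and 2, nearly level from rank 3 to 40, and lowest above 40. Exon 2 had 319 coding peaks at 153 per Mb, exon 3 had 230 at 108, and exons 4 to 5 had 367 at 99.5. Exons 6 to 10 had 527 at 102 per Mb. The densities were 108 and 105 per Mb for exons 11 to 20 and 21 to 40. Exons ranked above 40 had 49 at 67.2 per Mb. Against the densities of the GC classes the ratios were 1.26 for exon 2, 0.97 for exons 6 to 10 and 0.721 above 40. Exon 1 had 22 peaks at 161 per Mb, few of its bases being far enough from a start. The place of the exon in the coding sequence also went with density. Last coding exons held 629 coding peaks, 28.8% (27.0 to 30.8), in 20% of the bases, and internal exons 1323, 60.7% (58.6 to 62.7), in 73.2%. The densities were 156 per Mb in last, 89.7 in internal, 172 in first and 163 in single coding exons. At the densities of the GC classes, last exons would hold 531 peaks and internal exons 1472, so the ratios of found to that number were 1.18 and 0.899. These ratios, and those for exon rank, take no account of exon length, which also went with density. The part of length in them was not tested. Along the coding sequence, density was 91.3 per Mb in the 10% nearest the start codon and 131 and 126 in the last 2 of 10 parts.

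Distance from a start went with density too. The median distance to the nearest transcript start was 5857 bp (quartiles 3347 and 11866), and the farthest coding peak lay 190936 bp away. Between 2 and 5 kb there were 946 coding peaks (43.4%) at 142 per Mb, between 5 and 10 kb 548 peaks at 101.4 per Mb, and beyond 50 kb 41 peaks at 43.7 per Mb. The coding peaks nearest to the 2 kb limit were in Nkiras2 and Srrm3 (2005 bp), 9530068E07Rik (2008), Ccdc88b and 2210016L21Rik (2009), with scores of 50.37 to 71.81. The coding midpoints just outside it were in Tmem151a (1998 bp), Pcdhb18 and Chst8 (1994), Dagla (1992) and Actn4 (1991), with scores of 50.74 to 113.8.

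The density differed between autosomes. Chromosome 11 had 237 coding peaks at 157 per Mb, chromosome 15 had 129 at 155 per Mb, and chromosomes 13 and 3 had 42 and 51, at 52.5 and 52.6 per Mb. The mean GC content of the eligible bases was 52.4% on chromosome 11 and 48.4% on chromosome 13. Measured against the densities of the GC classes, the spread was narrower, from 0.791 on chromosome 1 to 1.26 on chromosome 10.

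The difference in GC content was also present between exons of the same gene. In 1413 genes that had both an exon with a coding peak and an eligible exon touched by no peak, GC content was higher in the exons with the peak in 1206 genes (85.4%) and lower in 206. The median over genes was 60.4% for exons with a coding peak and 56.1% for exons with none, and the median difference was 4.14 percentage points. CpG content was higher in 991 genes (70.1%). The exons compared differed in length too. Coding length was higher in the exons with the peak in 1235 genes (87.4%) and lower in 170, with medians of 281 and 134 bases. A longer exon has more bases for a midpoint and is less easily free of peaks, so this difference partly follows from the comparison itself. The size of that part was not tested. The parts of length and GC content were not separated in this comparison.

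**Figure D3:**
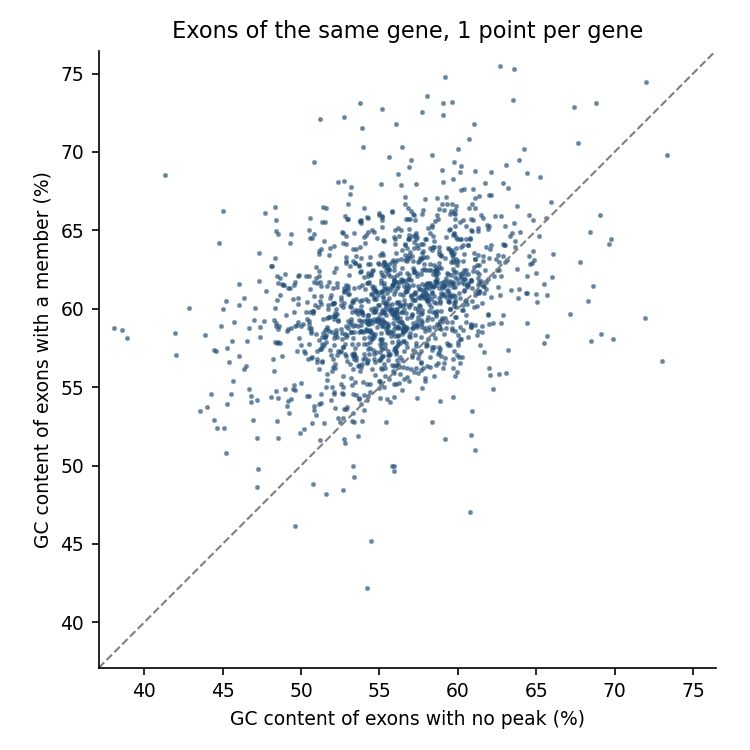
GC content of the coding exons with a coding peak (y axis, percent) against that of the exons of the same gene touched by no peak (x axis, percent), 1 point for each of 1413 genes. The dashed line marks equal values; 1206 points lie above it.

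Most genes had 1 coding peak. There were 1375 genes with 1, 261 with 2, 49 with 3, 23 with 4 and 7 with more, so that 806 coding peaks (37.0%) shared their gene with another. Only 46 exons held more than 1, and at most 4. Of the 466 pairs of consecutive coding peaks in a gene, 116 were under 2 kb apart and 162 over 10 kb, with a median gap of 6218.5 bp and a shortest of 481 bp. The share of genes with a coding peak rose with the amount of eligible coding sequence, from 2.98% (2.52 to 3.51) of the 4567 genes with up to 500 bases to 30.6% (26.7 to 34.8) of the 494 genes with over 4000 and up to 8000 bases. It was 25.4% (18.4 to 34) of the 118 genes with more.

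**Figure D4:**
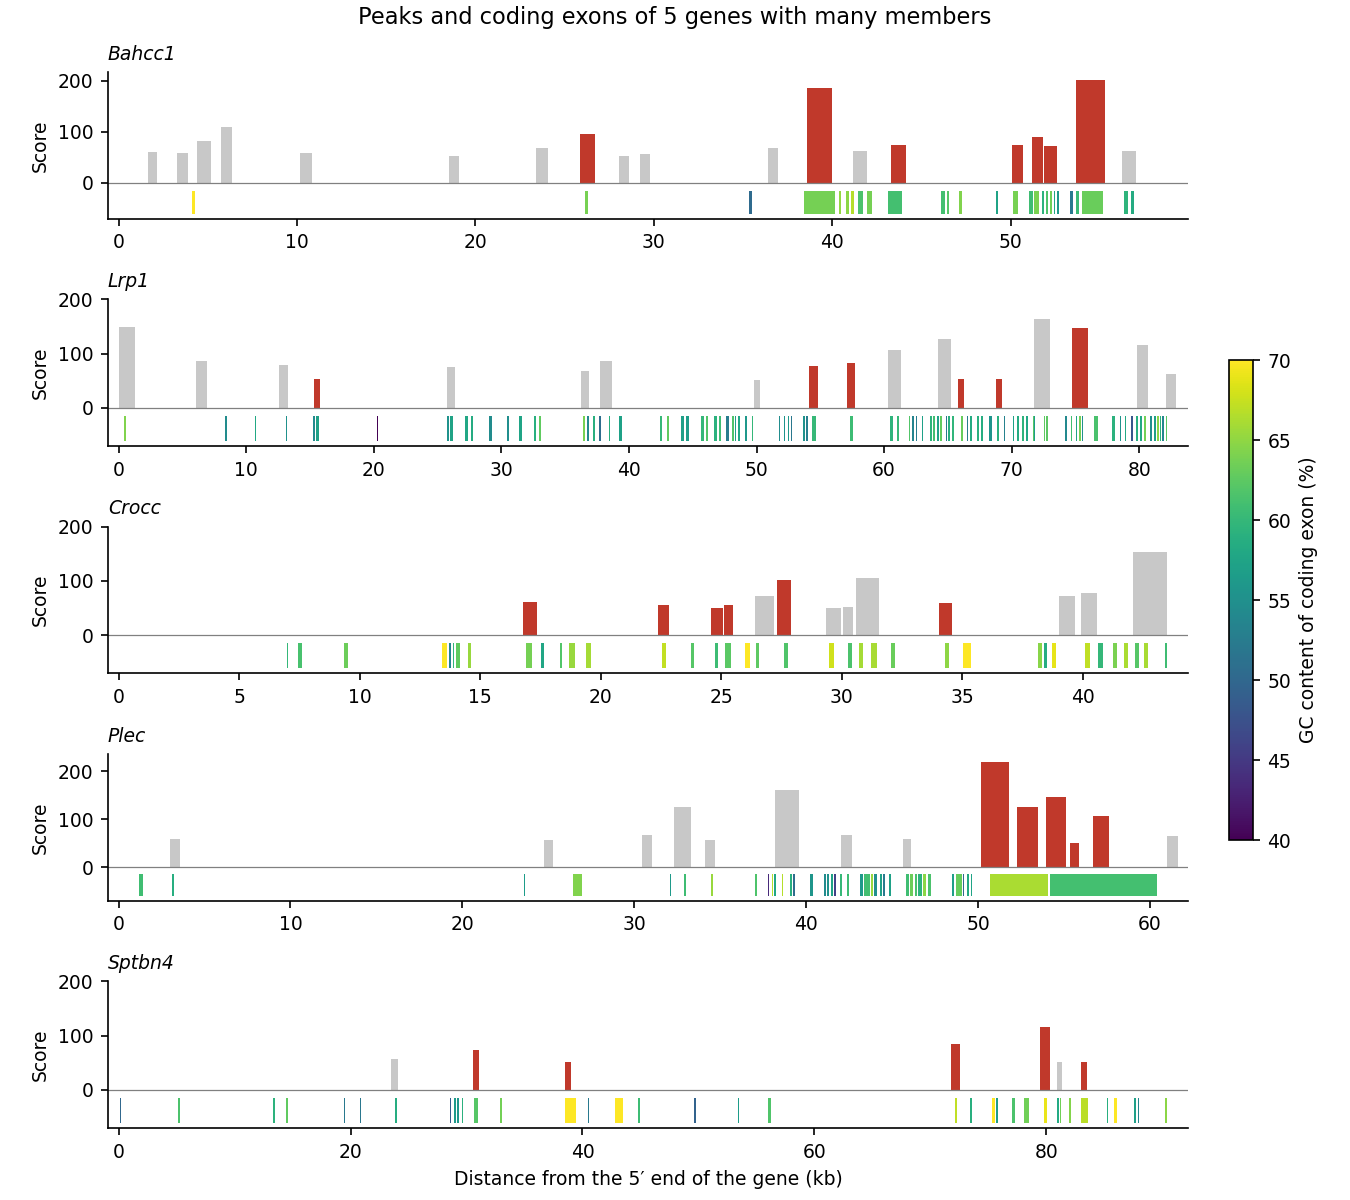
Peaks and coding exons of Bahcc1, Lrp1, Crocc, Plec and Sptbn4, drawn by distance from the 5′ end of the gene (x axis, kb), with the score of each peak as the height of its bar (y axis). Red bars are coding peaks and grey bars other peaks of the gene; the boxes below are coding exons coloured by GC content. The 6 coding peaks of Crocc stand on separate exons, while the 5 of Plec stand on its last 2 exons.

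Bahcc1, a gene for a chromatin protein with a BAH domain, had 7 coding peaks among 19 peaks in 59.4 kb. From 5′ to 3′ their scores were 95.7, 184.94, 74.72, 73.31, 89.11, 73.23 and 201.06. The 2 strongest lay on its longest bound exons, exon 5 (1746 coding bases, 63.8% GC) and exon 26 (1181 bases, 63.2% GC), and were 1440 and 1590 bp wide. The other 5 were on exons of 115 to 816 bases at 61.0 to 63.9% GC. Its 4898 eligible bases would hold 2.74 peaks at the densities of the GC classes. Bahcc1 and the next genes were named for their many coding peaks, so counts above such a number partly follow from that choice. Lrp1, the gene of a large endocytic receptor, had 6 coding peaks with scores of 54.11, 76.38, 81.92, 53.79, 52.63 and 146.65 from 5′ to 3′, on exons 6, 41, 42, 56, 62 and 74 of 89. These exons were short, 135 to 378 bases, and the strongest peak, 1247 bp wide, touched 4 coding exons. The number for Lrp1 at the densities of the GC classes was 2.65.

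Crocc encodes rootletin, the filament protein of the ciliary rootlet. Its 6 coding peaks, on exons 9, 14, 16, 17, 20 and 26 of 37, had scores of 60.5, 55.1, 50.21, 55.97, 102.26 and 59.9 and lay on exons of 147 to 237 bases. This gene had 1805 coding peaks per Mb of eligible sequence, and 6 coding peaks where the GC classes would give 2.03. Plec encodes plectin, a linker between cytoskeletal filaments. Its 5 coding peaks stood on exons 31 and 32 of 32, of 3381 and 6213 coding bases, with scores of 218.3 and 126.16 on the first and 146.7, 50.6 and 107.25 on the second. At 5 against 6.17 it had no more than the GC classes would give. Sptbn4, the gene of a spectrin of the axon initial segment, had 5 with scores of 74.24, 51.2, 84.7, 116.59 and 51.77 from 5′ to 3′, on exons of 62 to 70.7% GC, against 3.65.

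Other genes with many coding peaks had 4 or 5. Nphp4, a gene of the ciliary transition zone, had 5 with scores of 52.05 to 78.16, all on exons of 138 to 206 bases. Cacna1h, a T-type calcium channel, had 4 with scores of 85.25 to 202.87, and the strongest was 2043 bp wide on exon 9 of 35. Large synaptic scaffold genes were present with Bsn (4, 63.29 to 141.16), Shank3 (4, 62.55 to 181.64) and Shank2 (4, 52.97 to 122.91). In Shank3 2 of them, and in Shank2 3 of them, lay on 1 long exon, of 2257 bases at 65.6% GC and of 2407 bases at 61.4% GC. Tet3, an enzyme that oxidises methylated cytosine, had its 2 strongest (162.32 and 143.59) on its longest bound exons, of 1781 and 2158 bases, and 2 weaker (54.51 and 51.86) on exons of 337 and 94. The remaining genes were Camta1, a transcription activator (50.4 to 157.39), Hspg2, the gene of the basement membrane proteoglycan perlecan (77.05 to 112.58), and Tnrc18 (50.93 to 156.49), with 4 each. Hspg2 had fewer than the 5.33 that its 11579 eligible bases would hold at the densities of the GC classes.

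The highest scores came from long exons, some of them made of repeats. The first was in Eppk1, a gene of the plakin family whose coding sequence is 1 exon of 10374 bases, the longest with a coding peak. This peak (chr15:76102377-76106066) scored 1082.27 and was 3690 bp wide, and the other 2 coding peaks of the exon scored 74.24 and 50.53. In this exon 31.7% of the 31-base words occur more than once, and in the exon of Ahnak2 with the next score (621.9, chr12:112783380-112785020) 73.7% do. How reads matching several places were treated is not given in the sources used here, and the part of this in both scores was not tested.

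The next 8 scores were on exons with no repeated word. They were 508.94 in Sall3, a zinc finger transcription factor, 366.06 in Islr2, a neuronal membrane protein, 285.65 in the glutamate receptor gene Grm4, 270.89 in Tmem201, a protein of the inner nuclear membrane, 265.08 in the matrix protein Emilin1, 250.08 in Itpr3, 239.58 in Zfp423 and 235.1 in the phosphatase Ptpn14. Of these 8 exons 6 had 936 to 3215 coding bases, and all had 58.4 to 63.6% GC. Besides Eppk1, the longest exons with a coding peak were in Spen (8020 bases, scores 146.68 and 164.12), Fam186a (7978, 111.63), Bsn (6642, 116.47) and Ankrd11 (6518, 70.56). In Fam186a and Ankrd11 the whole exon was at 54.9% and 54.5% GC and the 200 bases at the peak at 64% and 62.5%. In the Fam186a exon 25.6% of the 31-base words occur more than once.

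Copied sequence was less common under coding peaks than in the eligible sequence. No 31-base word of the exon occurred at another autosomal gene for 2018 coding peaks (92.5%), against 86.0% of eligible bases. Exons with 50% or more of such shared words held 21 peaks (0.963%) and 5.35% of the bases. Exons with shared words were poorer in GC, and the differences were smaller against the densities of the GC classes. These would give 2013 peaks where 2018 had no shared word, 127 where 141 had fewer than 50%, and 33.9 where 21 had 50% or more. Words repeated within the exon were found for 51 coding peaks, and made up 10% or more of the exon for 24.

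Gene families were compared by 25 lists. The coding peaks of a list were set beside the number that its eligible bases would hold at the densities of the 20 GC classes over all coding genes, and the background for the share of genes is the 10.8% given above. Members of a family can share sequence and neighbourhood, and no set test was made.

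**Figure D5:**
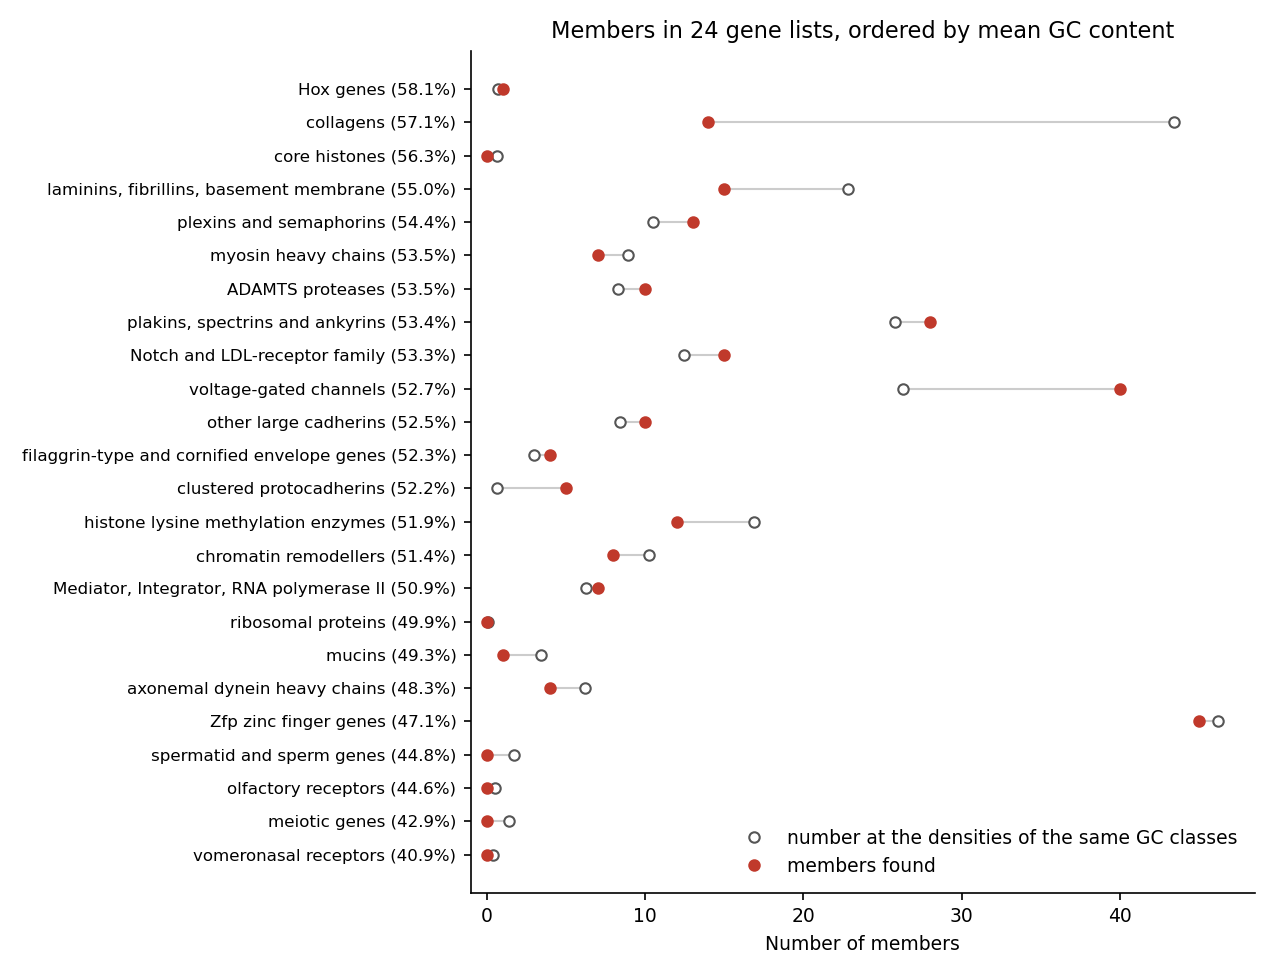
Number of coding peaks found (filled points, x axis) in 24 gene lists, ordered by the mean GC content of their eligible coding sequence given beside each name, and the number at the densities of the same GC classes (open points). Voltage-gated channels had 40 against 26.3 and collagens 14 against 43.4; lists below 46% GC had 0.

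Of 18 plakins, spectrins and ankyrins, 12 genes (66.7%) held 28 coding peaks, close to the 25.8 at the GC densities, led by Plec, Sptbn4 and Eppk1. Voltage-gated calcium, sodium and potassium channels had 40 coding peaks in 31 of 87 genes (35.6%), above the 26.3 at the GC densities and the 28.3 when exon length was also taken into account. Cacna1h had 4 and Cacna1a 3, including one of score 53.51 on an exon of 74.4% GC. Plexins and semaphorins, guidance receptors and ligands, had 13 in 10 of 27 genes, close to the 10.5 at the GC densities. Notch and LDL-receptor genes had 15 in 7 of 16, of which Lrp1 had 6, close to 12.4.

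Collagens and basement membrane genes had fewer than their GC content would give. The 42 collagens had a mean GC content of 57.1%, above most lists, and 14 coding peaks in 10 genes. Their GC content would give 43.4 and GC content with exon length 32.2. That length correction is coarse, since it keeps all exons of up to 150 bases together. Over all coding genes in the highest of 5 GC classes, density was 161 per Mb at up to 100 bases and 262 from there to 150. Col6a2 had 3, which lay on exons of 453 to 599 bases with scores of 53.91 to 91.68. Laminins, fibrillins and other basement membrane genes had 15 against 22.8, and 19.6 with length. Hspg2 and Ltbp4 had 4 each and Lama5 2. ADAMTS proteases had 10 in 7 of 19 genes against 8.31, with 3 in Adamts7.

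Zinc finger genes named Zfp had 45 coding peaks in 40 of 360 genes (11.1%) against 46.2 at the GC densities and 54.5 with exon length, with a mean GC content of 47.1%. Clustered protocadherins had 5 in 5 of 49 genes against 0.656, or 1.17 with exon length, with the local GC content described above. The peaks of Pcdhb17, Pcdhb5 and Pcdhga10 lay 2031 to 2121 bp from a start, just beyond the limit. These genes had 563 to 669 eligible bases, in exons of 2376 to 2418 coding bases. The numbers at GC densities rest on the GC content of the whole exon, which need not be that of its eligible part. Axonemal dynein heavy chains, the motors of cilia and sperm tails, had 4 in 2 of 15 genes, 3 in Dnah17 and 1 in Dnah5, against 6.22. Of 11 mucins 1 had a coding peak, Muc2, on an exon of 67.8% GC, where the GC densities would give the list 3.41. Histone lysine methyltransferases and demethylases had 12 in 9 of 50 genes against 16.9, with 3 in Kmt2d and the highest score, 195.55, in Prdm13. Of 39 Hox genes only 9 had eligible sequence, and 1 of them, Hoxc9, held a coding peak (score 60), against 0.727 at the GC densities.

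The lists of meiotic and of sperm genes held none. No coding peak lay in the 36 meiotic genes with eligible sequence, which allows a share of genes of up to 8.33%, nor in the 43 spermatid and sperm genes, which allows 6.98%. Both lists are poor in GC, at 42.9% and 44.8%, and at the GC densities they would hold 1.43 and 1.71 coding peaks, so a difference was not detectable in lists of this size. The same holds for the 97 olfactory receptor genes (0.513 at the GC densities), the 138 vomeronasal receptor genes (0.403), the 7 core histone genes (0.621) and the 12 ribosomal protein genes (0.0937) with eligible sequence. None of the 57 keratin-associated protein genes had any coding base more than 2 kb from a start.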

How the data were processed

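The deposited peak list of 1 H1t library gives 1 line per peak, with its position and a score. The score is the authors' own value, from 50 to 3100, and was used only to describe and rank peaks of this list. Bowtie 1.1.2 and mm10 are named per the submitters' processing notes. Peak names have the form that MACS writes, but for the caller, cutoff, control and read depth the sources used here give nothing, so the precision of single scores is unknown.

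Each midpoint was placed in the GENCODE M21 annotation. Each coding base was assigned to 1 exon, that of the principal or longest transcript first, and exon rank, coding length, GC and CpG content were taken from that exon's transcript sequence. Intron composition was not measured. Densities are peaks per Mb of eligible bases. Numbers at GC densities come from 20 GC classes of equal size, or, with exon length, from the same classes each split at 150 and 500 coding bases. Words of 31 bases were compared among annotated transcripts of chromosomes 1 to 19. A count of 0 allows 3 counts of the total. Shares carry 95% Wilson intervals. Assignment and densities were run on simulated peaks drawn from the same eligible bases. That run checks the calculation only and could not show an error in the annotation or in the assignment of bases to exons. The tools were pandas 2.3.3 and numpy 2.4.6 under Python 3.11.15, with matplotlib 3.10.9 for plots and scipy 1.17.1 for rank correlations.

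Members and gene lists were chosen with earlier results of these data known. The genes named are the 15 with the most coding peaks, those of the 10 highest scores and of the 5 longest exons, and up to 3 of each list; others are said to be chosen later. Some genes that this rule names are not reported here. The numbers at GC densities, the CpG bands, the stretches of 200 bases and the exons at the extremes of GC content were chosen once the results were known. Alternatives changed the overlap rule, start distance, annotation, width and score.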

Additional observations from a re-analysis of the deposited data

How the results depend on the processing

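Of 48 values, from 8 alternatives for each of 6 results, 23 stayed within their bounds (1.5 times a count, the counting interval of a share or median) and 25 did not. Replacing the midpoint rule by at least 1 coding base gave 3387 coding peaks, a median exon GC content of 60%, 14.3% in exons of 1 kb or more, 26.6% in last exons and 46.2% sharing a gene with another. Replacing it by at least 50% of the peak being coding, whether or not the midpoint was, gave 1352 peaks, 34.5%, 35.1% and 26.5% for the same shares. Peaks at or above the median score of the list numbered 770 in 682 genes, with 61.2% GC, 32.9%, 31.7% and 20.1%. A start distance of 5 kb left 1235 peaks in 992 genes, with 60.1% GC and 34.2% sharing a gene, and one of 1 kb put 26.9% in last exons. Basic transcripts alone gave 3104 coding peaks in 2312 genes, against 2181 in 1715 under the main rule. They gave 18.7%, 23.3% and 43.1% for long exons, last exons and shared genes. Peaks narrower than 1 kb gave 17.4% and 34.9% for long exons and shared genes. The median GC content thus moved by less than 1 percentage point under every alternative run. The shares in long and in last exons both left their bounds under each overlap rule, the score cutoff and basic transcripts. Of these shares the width limit moved only that in long exons, and the start distance of 1 kb only that in last exons. The cause was not tested, and the shares of eligible bases beside these values were not recomputed. No paired analysis was possible because 1 library has a peak list. Without the input and read depth, scores near 50 cannot be weighed against background.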
